A study of Mus musculus with 12 samples.

Results

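The comparison examined here is CpG1668+Dox against Dox, that is, CpG1668 added on top of doxycycline in mouse acute myeloid leukaemia (AML) cells. It was chosen by treatment label and takes 6 of the 12 libraries of the series, 3 from each treatment. Of the 33531 gene symbols in each file, the 12239 with a mean of at least 1 RPKM (reads per kilobase of transcript, scaled to the library's mapped reads) over these 6 libraries were kept. All cells were of the line labelled CMM and carried tetON-shStat3, a construct that makes a hairpin RNA against Stat3 when doxycycline is given. They were grown in NSG mice, which lack mature T, B and NK cells but keep myeloid cells of their own. Treatment began once leukaemia cells made up about 1% of blood cells, and GFP+mCh+ cells were sorted from the spleen 1 day after the last dose. CpG1668+Dox mice received both agents and Dox mice doxycycline alone. The other 6 libraries, CpG1668 and PBS, came from mice given no doxycycline, and they are used below as a second CpG1668 contrast that shares no library with the first.

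Limits of these groups bear on every value. All 4 groups carried the hairpin, so no library shows doxycycline without it. One label gives 6 daily treatments and the series' design text gives 3, every other day. No label ties a library to a mouse of its own. The p-values therefore measure the spread between libraries of the same treatment, pooled over the 4 groups (8 residual degrees of freedom), and that spread may be technical. In bulk RNA, more cells of a type and more RNA per cell cannot be told apart.

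CpG1668 is a synthetic oligodeoxynucleotide with unmethylated CpG motifs that activates mouse Toll-like receptor 9 (Tlr9), an endosomal sensor of microbial DNA. Unc93b1 carries Tlr9 to the endosome, the adaptor Myd88 relays its signal, and the signal branches to NF-kappaB and to interferon regulatory factors. STAT3, a transcription factor downstream of cytokine receptors such as that for interleukin-6, is known to restrain Toll-like receptor responses in myeloid cells. The series' title places the work in inv(16) AML, in which myeloid differentiation is blocked, and names IRF8, a transcription factor of monocyte and dendritic cell development.

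The gene targeted by the hairpin did not separate the groups. Stat3 (chromosome 11, 100885098 to 100939540, GRCm38, minus strand) was at 19.7, 19.4 and 19 RPKM in the CpG1668+Dox libraries and at 18.8, 19.1 and 18.8 in the Dox libraries, and its log2 change was 0.03 (limma adjusted p = 0.78). A gene-level RPKM does not measure STAT3 protein. The leukaemia label was checked against progenitor and leukaemia genes: Kit stood at 16.2 to 19.7, Gata1 at 85.6 to 105 and Cbfb at 30.8 to 33.1 RPKM over the 6 libraries. Cd34 was near the detection limit (0.0990 to 0.487 RPKM) and the pan-leucocyte gene Ptprc was low (1.44 to 4.6 RPKM), so both were weak beside Kit and the megakaryocyte and erythroid factor Gata1.

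Depths estimated from the step between low RPKM values ran from 30450000 to 33880000 reads over the 6 libraries, at which 3 reads on a gene of 1 kb correspond to an RPKM of 0.0886 to 0.0985. Libraries correlated at 0.992 to 0.995 within the groups and 0.983 to 0.992 between them (Pearson, over the log2 values of all kept genes of the 12 libraries), and no 2 files were identical. Library Dox 1 correlated best with a CpG1668 library, and each of the other 5 with a library of its own group. In the summed late neutrophil genes described below, CpG1668+Dox 3 was the highest of the 6 and Dox 1 the lowest. Counts without those 2 libraries are given where they matter.

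Adding CpG1668 to doxycycline raised many more genes than it lowered. limma called 398 genes higher (3.25% of those tested) and 86 lower (0.703%), 3.95% in all, at a Benjamini-Hochberg adjusted p under 0.05, and 1733 genes (14.2%) had an unadjusted p under 0.05. The changes were also larger upward: 184 of the genes called higher had a mean at least 2-fold that of Dox, against 3 of those called lower. The median log2 change over all tested genes was -0.01. Genes without overlap between the 3 libraries of each group numbered 1138 with CpG1668+Dox higher (9.3%) and 1243 with it lower (10.2%). Both shares are of kept genes, and none was counted for genes under the filter. Counts of called list members below stand against 3.25% higher and 0.703% lower. The count of calls moved with single libraries: without CpG1668+Dox 1 it was 262 higher and 42 lower, and without Dox 2 it was 320 and 54. A fit without CpG1668+Dox 3 and Dox 1, added once their levels were known, called 210 genes higher and 68 lower.

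**Figure D1:**
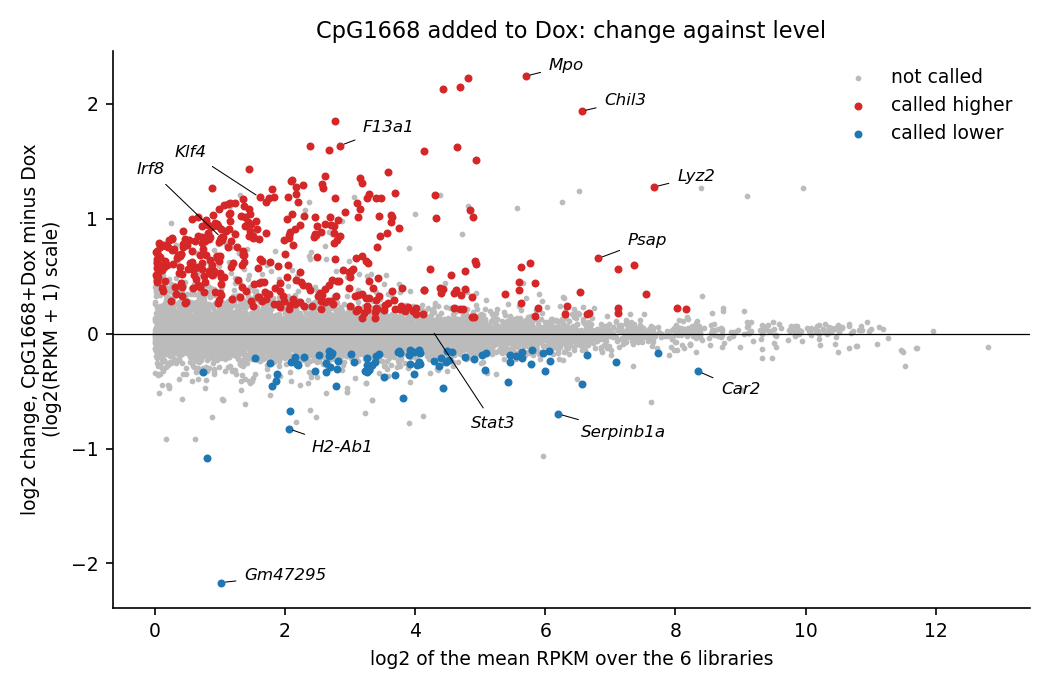
Log2 change of each of the 12239 genes (CpG1668+Dox minus Dox, on the log2(RPKM + 1) scale) against the log2 of its mean RPKM over the 6 libraries, with genes called higher in red (398) and lower in blue (86). Red points reach a change of 2.24 (Mpo) while most blue points lie between 0 and -1, and Stat3 sits on the zero line.

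The route that delivers the oligonucleotide to its receptor was examined first, from receptor to adaptor. Tlr9 itself (chromosome 9, 106222598 to 106226883) stayed under the filter, at 0.468, 0.356 and 0.511 RPKM with CpG1668+Dox and 0.180, 0.236 and 0.173 with Dox. The CpG1668+Dox libraries were all higher, but at a level too low to enter the test. Unc93b1, its chaperone, was at 8.71, 7.5 and 10.9 RPKM against 4.01, 4.78 and 4.52, a log2 change of 0.87 ± 0.10 (SE; limma adjusted p = 0.00053). Those groups did not overlap, and Unc93b1 rose by 0.94 without doxycycline. Slc15a4, an endosomal transporter (0.28), Irf5 (0.21) and Myd88 (0.15) rose by smaller log2 changes, and each of these 3 calls was lost without single libraries. The call on Slc15a4 was lost without CpG1668+Dox 1, CpG1668+Dox 2, CpG1668+Dox 3, Dox 1 or Dox 3 (adjusted p = 0.069 to 0.11). Irf5 was no longer called without CpG1668+Dox 1, CpG1668+Dox 2, CpG1668+Dox 3, Dox 1 or Dox 3 (adjusted p = 0.053 to 0.13). Myd88 was no longer called when any 1 of the 6 libraries was left out (adjusted p = 0.1 to 0.15). In all, 4 of the 19 kept genes of the route were called higher (21.1%, against 3.25% of all genes) and none lower. The median log2 change was 0.03.

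Among the other Toll-like receptors and their partners, most of the genes that passed the filter rose. Of the 8 kept genes of that list, 6 were called higher and none lower, with a median change of 0.65, and the same number was called higher without doxycycline. The list's 7 genes under the filter were mixed. Without overlap, 3 were higher with CpG1668+Dox (Tlr1, Tlr4 and Tlr6) and 2 lower (Tlr11 and Tlr12, at most 0.19 RPKM). For Tlr12 the values were 0 to 0.00928 against 0.00997 to 0.0207 RPKM, a level that rests on few reads. Tlr8 rose from 0.532 ± 0.0401 to 1.53 ± 0.291 RPKM (means ± SD, n = 3), a log2 change of 0.72 (limma adjusted p = 0.00094). With a Dox mean under 1 RPKM, Tlr8 passed the filter through its CpG1668+Dox values alone. Tlr8 and Cd180 were both under 1 RPKM when the mean was taken over all 12 libraries. Tlr13, a sensor of bacterial ribosomal RNA, rose by 0.75, and Cd180 and its partner Ly86 rose by 0.62 and 0.79. Tlr7 (0.60), the sensor of single-stranded RNA, and Tlr2 (0.41), the sensor of bacterial lipopeptides, complete the 6. Only Tlr7 among the 6 was not called without doxycycline, where its change was 0.33 (limma adjusted p = 0.073), and the difference between the 2 changes had an unadjusted p of 0.082.

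Genes that NF-kappaB induces quickly, and the factors themselves, were not called. limma called none of 15 kept genes in either direction (3 had an unadjusted p under 0.05), and the median change was 0.05. Birc3, an inhibitor of apoptosis, was at 4.97, 5.08 and 5.09 RPKM against 4.51, 4.42 and 4.47, a log2 change of 0.15 with a limma adjusted p of 0.11. The groups did not overlap for Birc3, although the test was missed. The subunit Rel had 1.65, 1.43 and 1.64 against 1, 1.14 and 1.34 RPKM (0.26, adjusted p = 0.11), and Nfkbiz overlapped between the groups.

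Among inflammatory cytokines and chemokines, 2 of 7 kept genes rose (28.6%, against 3.25% of all genes) and none fell. Both were chemokines of the C-C class expressed by myeloid cells. Ccl9 was at 6.41, 5.52 and 6.47 RPKM with CpG1668+Dox and 2.05, 2.38 and 1.95 with Dox, a log2 change of 1.19 ± 0.07 (limma adjusted p = 1.2e-05). Ccl6, its neighbour on chromosome 11, was at 7.95, 6.77 and 7.61 against 2.77, 4.57 and 3.76 RPKM (0.86, adjusted p = 0.0036). Neither pair of groups overlapped. Ccl3 ranged widely within the CpG1668+Dox group (3.29, 5.89 and 0.632 RPKM) and its change of 0.75 was not called (limma adjusted p = 0.52), and Il1b changed by 0.33 (adjusted p = 0.55). The interleukin-12 subunit Il12b was listed at 0 in all 3 CpG1668+Dox libraries, and Il10, at 0.135 to 0.226 RPKM against 0.0477 to 0.0501, stayed under the filter.

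Among interferon-stimulated genes, 2 of 18 kept rose (11.1%, against 3.25% of all genes) and none fell, with a median of 0.02. Ifi27l2a was at 7.87, 8.6 and 9.97 RPKM against 5.06, 4.61 and 4.31 (0.79 ± 0.11, limma adjusted p = 0.0013), and its change without doxycycline was 1.48. Trim30a rose by 0.68. The call on Trim30a was lost without Dox 1 or Dox 2 (adjusted p = 0.051 to 0.064). Oas1a, an antiviral enzyme, changed by 0.14 (adjusted p = 0.44) and Irf9 by -0.11 (adjusted p = 0.5). Of 8 kept interferon-inducible GTPases and guanylate-binding proteins, Gbp3 alone rose, from 0.735, 0.652 and 0.663 to 1.43, 1.5 and 1.62 RPKM (0.58, adjusted p = 0.00051). Gbp3 was under 1 RPKM in every Dox library and passed the filter through CpG1668+Dox alone. The membrane proteins Ifitm1 (1.3) and Ifitm3 (1.07) also rose, 2 of the 6 kept genes of their list, and the groups of each were separate. Ifitm3 was no longer called without CpG1668+Dox 3 or Dox 1 (adjusted p = 0.054 to 0.056). The call on Ifitm1 was lost when the 6 libraries were fitted alone.

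The transcription factors that direct monocyte and granulocyte development rose as a group of 6 out of 14 kept, with none lower and a median log2 change of 0.47. Irf8 (chromosome 8, 120736358 to 120756694, plus strand) was at 2.61, 2.48 and 3.6 RPKM with CpG1668+Dox and at 1.09, 1.21 and 1.2 with Dox. All 3 CpG1668+Dox values lay above all 3 Dox values, and the log2 change was 0.84 ± 0.10 (SE; limma adjusted p = 0.00053). Klf4 (chromosome 4, 55527143 to 55532466, minus strand), a zinc-finger factor of monocyte differentiation, was at 4.27, 4.67 and 4.97 against 1.41, 1.64 and 1.38 RPKM. Its change of 1.19 (adjusted p = 1.2e-05) equalled the 1.19 found without doxycycline. Cebpa, which commits progenitors to the myeloid path, rose from 1.21 ± 0.0179 to 2.89 ± 0.346 RPKM (means ± SD, n = 3; log2 change 0.81, adjusted p = 0.00033).

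The related factor Cebpb rose by 0.85 (limma adjusted p = 0.0013) and Cebpe, a factor of late granulocyte maturation, by 1.19 (adjusted p = 0.034), from 0.832, 1.85 and 2.53 to 4.39, 3.23 and 8.61 RPKM. Cebpe was highest in CpG1668+Dox 3 and lowest in Dox 1, although the groups did not overlap. Klf2, the last of the 6, rose by 0.63 (adjusted p = 0.024). Spi1, which encodes PU.1, was already well expressed at 18.8, 21.4 and 20.8 RPKM in Dox and reached 24.4, 22.4 and 25.2, a change of 0.23 that was not called (adjusted p = 0.07). Without any 1 library, 4 to 6 factors were called higher, and without CpG1668+Dox 3 and Dox 1 together 6 were, with 1 lower.

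**Figure D2:**
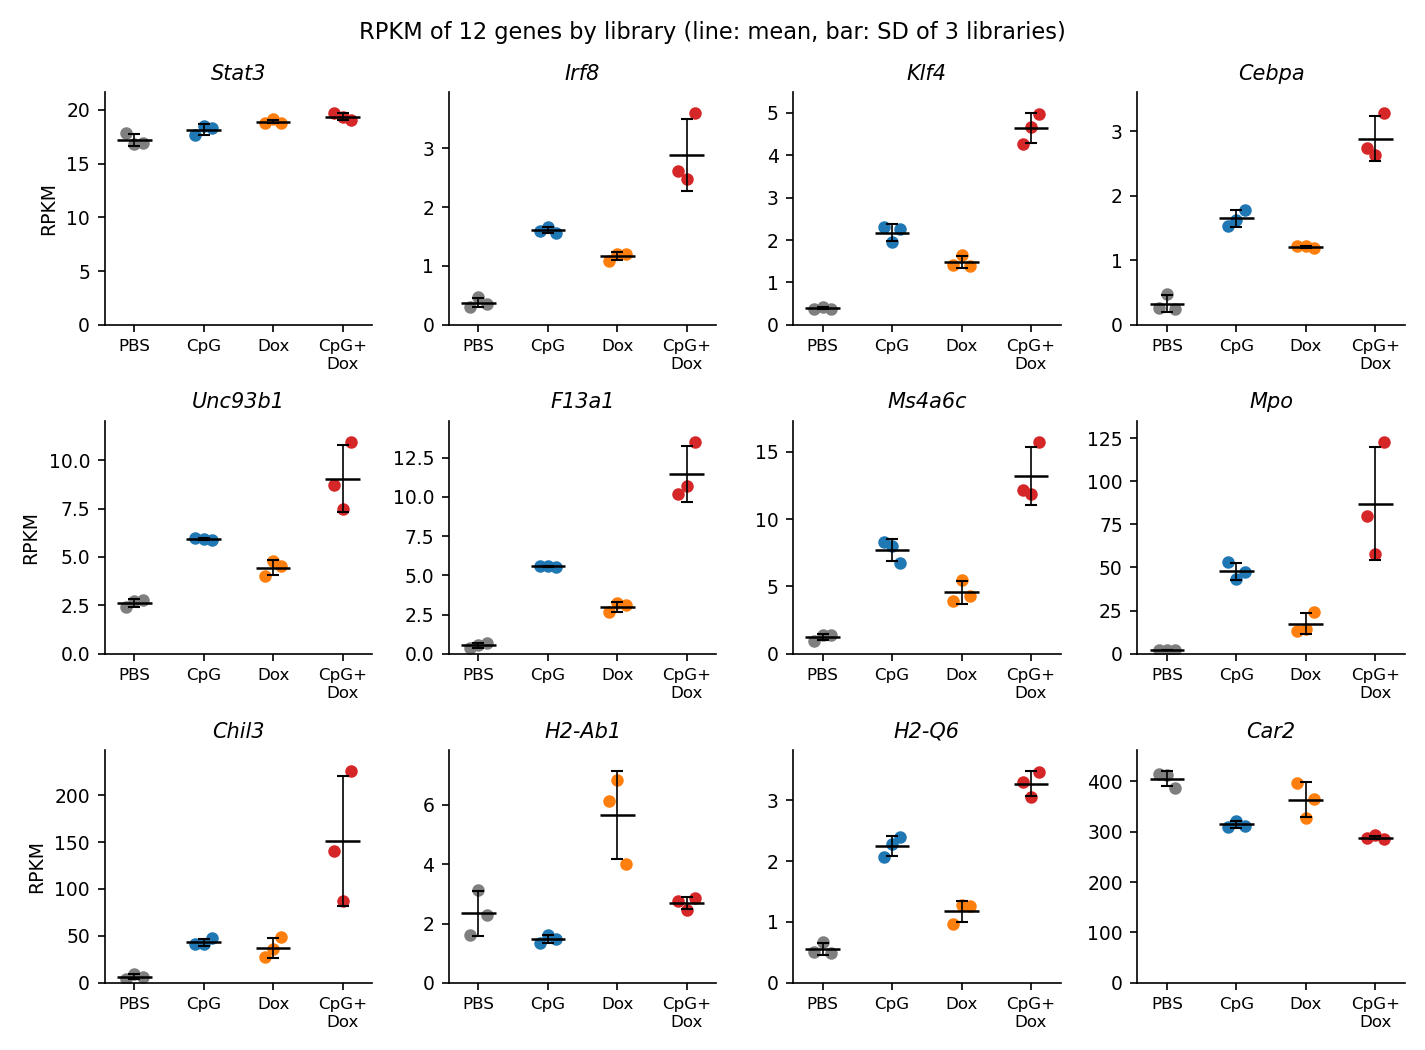
RPKM of 12 genes in each library of the 4 groups (PBS; CpG for CpG1668; Dox; CpG+Dox for CpG1668+Dox), with the mean as a line and the SD of 3 libraries as a bar; every axis starts at 0. Stat3 is level across the groups, Irf8, Klf4, Cebpa, Unc93b1, F13a1, Ms4a6c, Mpo, Chil3 and H2-Q6 are higher in all 3 CpG1668+Dox libraries than in all 3 Dox libraries, and H2-Ab1 and Car2 are lower.

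Monocyte genes gave the largest number of rises among the 43 lists. Of 28 kept, 23 were called higher and 1 lower, against 3.25% and 0.703% of all genes, and the median change was 0.94. F13a1, the coagulation factor XIII subunit made by monocytes (chromosome 13, 36867178 to 37050244), was at 10.2, 10.7 and 13.5 RPKM against 2.65, 3.21 and 3.1. The 2 groups lay far apart, with a log2 change of 1.64 ± 0.10 (limma adjusted p = 1.2e-05). Ms4a6c was at 12.1, 11.8 and 15.7 against 3.89, 5.51 and 4.28 RPKM (1.36, adjusted p = 0.00021), and Plac8 at 37.8, 29.5 and 48.4 against 9.96, 11.5 and 13.6 (1.62). Fcgr1, the high-affinity IgG receptor, rose from 0.891 ± 0.0595 to 2.65 ± 0.422 RPKM (means ± SD, n = 3; log2 change 0.94).

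Genes of monocyte identity and trafficking rose beside these: Csf1r, the M-CSF receptor (1.02), Ccr2, the receptor for egress from marrow (0.95), and Lyz2, lysozyme (1.28). Ahnak, a large scaffold protein, was the list's 1 member called lower (-0.56). For Ahnak the threshold was missed without CpG1668+Dox 1, CpG1668+Dox 2, CpG1668+Dox 3, Dox 2 or Dox 3 (adjusted p = 0.065 to 0.15). The summed RPKM of the monocyte list was 598 to 809 in the CpG1668+Dox libraries and 280 to 403 in the Dox libraries. Leaving out 1 library at a time gave 18 to 24 monocyte genes called higher. Leaving out CpG1668+Dox 3 and Dox 1 together gave 17, and a fit with the mean log2 value of the late neutrophil genes as a covariate, also added later, gave 15.

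The serine proteases and peroxidase of primary granules, made at the promyelocyte stage, held the 4 largest positive changes among all genes called. Mpo, myeloperoxidase (chromosome 11, 87793581 to 87804413), was at 80.1, 58 and 123 RPKM with CpG1668+Dox and 13.2, 14.5 and 24.5 with Dox, a log2 change of 2.24 ± 0.25 (limma adjusted p = 0.00049). Elane, neutrophil elastase, was at 37.9, 24 and 67.7 against 5.53, 8.44 and 11.5 RPKM (2.15, adjusted p = 0.0021). In both genes CpG1668+Dox 3 was highest, yet no library of one group reached the other. Prtn3, which lies beside Elane on chromosome 10 (79874476 to 79883174 against 79886247 to 79888215), rose by 2.12, and Ctsg, cathepsin G on chromosome 14, by 2.22.

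Ms4a3, a marker of granulocyte and monocyte progenitors, rose by 1.85, and Ctsc, the protease that activates the granule proteases, by 0.56, with a tight spread (22.1, 21.5 and 23.7 against 14.1, 15.9 and 14.7 RPKM). Gsr, glutathione reductase, completed the 7 of 11 kept genes called higher (0.38, limma adjusted p = 0.0035), and none was lower. The call on Gsr was lost when the 6 libraries were fitted alone. The median of the list was 0.56. The count was 7 whichever single library was left out, and also without CpG1668+Dox 3 and Dox 1 together.

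Genes of later neutrophil stages had a median change of 1.04, and 19 of 19 kept were positive. Chil3 was the 1 gene called (5.26%, near the 3.25% of all genes called higher), against 12 without doxycycline. At an unadjusted limma p under 0.05, 16 of the 19 passed, against 14.2% of all genes. The interaction, described further on, called no gene of the list. Chil3, a chitinase-like protein, was at 141, 87.3 and 226 RPKM against 27, 35.7 and 48.4 (1.93 ± 0.33, limma adjusted p = 0.0065). S100a8, a subunit of calprotectin, was at 730.0, 406 and 1087 RPKM in CpG1668+Dox and 136, 315 and 614 in Dox. Its groups overlapped and its change of 1.2 had an adjusted p of 0.28. Mmp8, Csf3r and Wfdc21 likewise missed the threshold, with changes of 0.87, 0.65 and 1.21. The summed level of the list was 1799 to 4694 RPKM in CpG1668+Dox and 608 to 2413 in Dox, lowest in Dox 1 and highest in Dox 3 within that group. Without Dox 3, 12 of the 19 were called higher, and without CpG1668+Dox 2, 2 were.

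Among the genes with the largest rises outside these lists, Gstm1, a glutathione transferase, was at 7.17, 6.01 and 12.3 RPKM against 1.87, 1.77 and 2.2 (1.64, limma adjusted p = 0.00047). Lgals1, galectin-1, was at 25.9, 22.2 and 32.4 against 6.65, 8.72 and 9.26 (1.59, adjusted p = 0.0002). The 2 groups were separate for both. Hp, haptoglobin, rose by 1.51 (adjusted p = 0.015). The call on Hp was lost without CpG1668+Dox 3, Dox 1 or Dox 2 (adjusted p = 0.055 to 0.064).

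**Figure D3:**
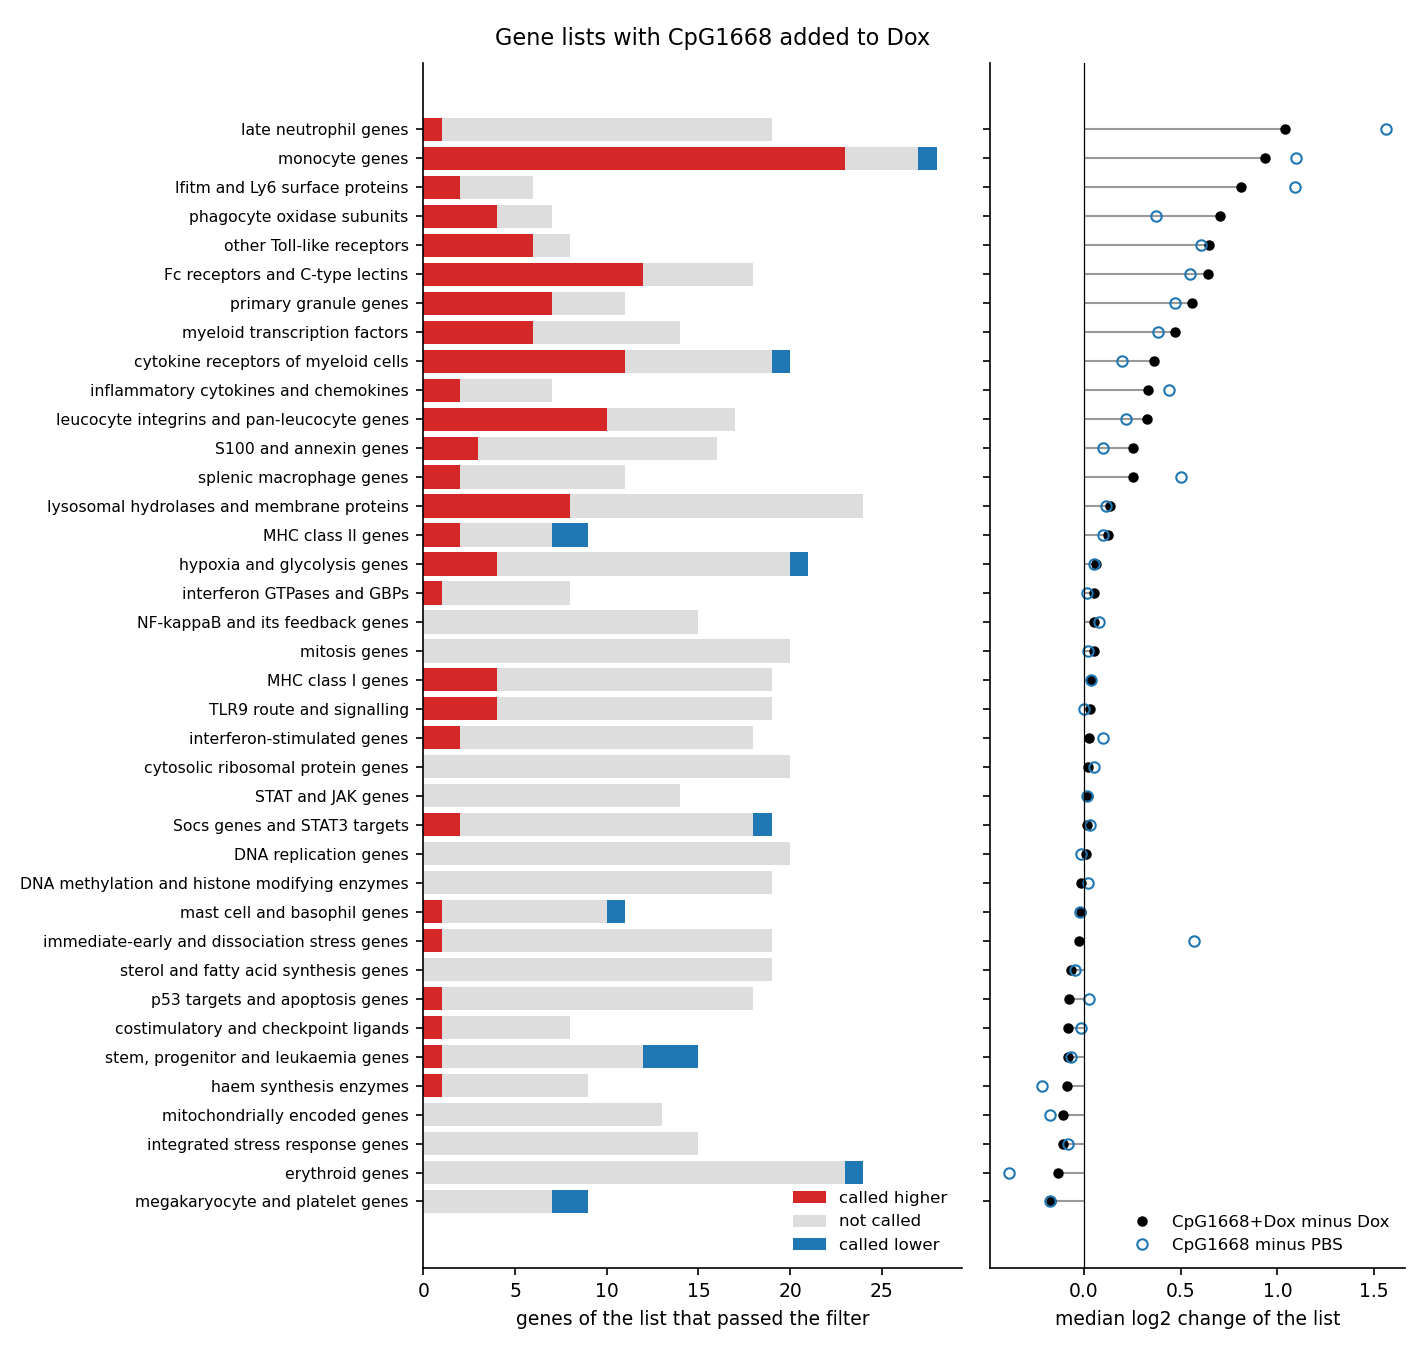
Left, the number of kept genes of each list called higher (red), lower (blue) or not called (grey); right, the median log2 change of the list with doxycycline (black) and without it (open blue), for lists with at least 5 kept genes. Monocyte genes have 23 red of 28, primary granule genes 7 of 11, and the replication, mitosis and ribosomal lists have none.

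Effector and surface proteins of phagocytes followed the same direction. Of 7 kept subunits of the phagocyte NADPH oxidase, which makes superoxide, 4 rose and none fell, with a median of 0.70. Cybb, the catalytic subunit, was at 18.5, 13.5 and 23.5 against 4.49, 7.81 and 10.1 (1.23, limma adjusted p = 0.016), Ncf4 changed by 1.18 and Ncf1 by 1.18. Cybb was no longer called without CpG1668+Dox 1 or CpG1668+Dox 3 (adjusted p = 0.065 to 0.07). For Ncf1 the threshold was missed without CpG1668+Dox 1, CpG1668+Dox 3, Dox 1 or Dox 2 (adjusted p = 0.085 to 0.096). Ncf4 was no longer called when the 6 libraries were fitted alone. Without CpG1668+Dox 1 or CpG1668+Dox 3 the number called fell to 2, and without CpG1668+Dox 3 and Dox 1 together to 1.

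Of 18 Fc receptor and C-type lectin genes, 12 rose and none fell (median 0.64). Fcgr4, an activating IgG receptor, was at 12, 7.09 and 11.5 RPKM against 2.09, 3.11 and 2.72, a log2 change of 1.6 ± 0.19 (limma adjusted p = 0.00062), close to the 1.55 without doxycycline. Pilra, an inhibitory receptor of myeloid cells, was at 3.49, 2.68 and 3.84 against 1.14, 1.26 and 1.73 (0.87, adjusted p = 0.0018). Clec12a rose by 0.79, a call lost when the 6 libraries were fitted alone. The count was 8 to 16 when 1 library was left out, and 5 without CpG1668+Dox 3 and Dox 1 together.

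Pan-leucocyte genes and integrins rose in 10 of 17 (none lower, median 0.32). Itgb2, the beta-2 integrin, rose by 1.00, Itgam, its CD11b partner, by 1.14, and Ptprc, CD45, by 0.83. Itgam was no longer called when the 6 libraries were fitted alone. The count dropped to 5 without CpG1668+Dox 1, to 6 without CpG1668+Dox 3 or Dox 1, and to 4 without CpG1668+Dox 3 and Dox 1 together. Cytokine receptors rose in 11 of 20 (median 0.36): Ifngr1, an interferon-gamma receptor subunit, was at 13.3, 10.2 and 13.9 against 5.2, 5.67 and 5.01 RPKM (1.09, adjusted p = 0.00024), and Tnfrsf1a and Il6ra rose by 1.15 and 0.93. Csf2rb, the shared beta subunit of the GM-CSF receptor, was the 1 called lower (-0.25, adjusted p = 0.028), a call lost on leaving out any 1 of the 6 libraries. Of 24 lysosomal genes 8 rose and none fell. Ctsh changed by 0.98, the macrophage sialomucin Cd68 by 0.76, Psap by 0.65 and Grn by 0.40.

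Antigen presentation genes split. The class II genes H2-Ab1 and H2-Aa, which encode the beta and alpha chains of one molecule and lie side by side on chromosome 17 (34257689 to 34269419 and 34282744 to 34287823), fell. H2-Ab1 was at 2.76, 2.45 and 2.85 RPKM with CpG1668+Dox and 6.14, 6.84 and 3.99 with Dox (-0.83 ± 0.17, limma adjusted p = 0.018). H2-Aa was at 2.78, 2.86 and 3.38 against 5.82, 6.34 and 4.21 (-0.68, adjusted p = 0.019). The groups were separate for both, and Dox 3 was the lowest Dox library. The call on H2-Ab1 was lost without CpG1668+Dox 1, CpG1668+Dox 2, Dox 1 or Dox 2 (adjusted p = 0.057 to 0.076). H2-Aa was no longer called without CpG1668+Dox 1, CpG1668+Dox 2, Dox 1 or Dox 2 (adjusted p = 0.057 to 0.085). H2-Eb1 (-0.66, adjusted p = 0.078) and the invariant chain Cd74 (-0.72, adjusted p = 0.13) were not called, and without Dox 3 the number of class II genes called lower was 4.

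In the same list, 2 endosomal proteins that process class II ligands rose. Ctss, cathepsin S, was at 25.5, 25.9 and 32.2 RPKM against 10.6, 14.5 and 9.73 (1.2, limma adjusted p = 0.0018), and Ifi30, a lysosomal thiol reductase, at 34.6, 35 and 42.1 against 24.3, 24.2 and 22.1 (0.64). Of 19 kept class I genes 4 rose (21.1%, against 3.25% of all genes) and none fell. H2-Q6 moved most (3.31, 3.06 and 3.46 against 0.97, 1.28 and 1.27 RPKM; 0.98, adjusted p = 7.4e-05), ahead of H2-Q4 (0.35), B2m (0.21) and H2-D1 (0.17). H2-Q6 and H2-Q4 belong to a family of near-identical genes whose reads the counting could have split between members. For H2-Q4 the threshold was missed without CpG1668+Dox 2, CpG1668+Dox 3, Dox 2 or Dox 3 (adjusted p = 0.053 to 0.069). The call on B2m was lost without CpG1668+Dox 1, CpG1668+Dox 3, Dox 1, Dox 2 or Dox 3 (adjusted p = 0.07 to 0.11). H2-D1 was no longer called when any 1 of the 6 libraries was left out (adjusted p = 0.062 to 0.091). Vsir, an inhibitory ligand, was the 1 of 8 kept costimulatory and checkpoint genes called higher (0.40). For Vsir the threshold was missed without CpG1668+Dox 1, CpG1668+Dox 3, Dox 1 or Dox 2 (adjusted p = 0.053 to 0.089).

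The pathway of the hairpin's target was examined next. limma called none of 14 kept STAT and JAK genes (2 had an unadjusted p under 0.05), with Jak3 at 0.15 (adjusted p = 0.065). Of 19 kept Socs genes and known STAT3 targets, 2 rose and 1 fell, 15.8% called in all against 3.95% of all genes. Socs3, the feedback inhibitor that STAT3 induces, was at 2.6, 3.01 and 2.33 RPKM against 1.72, 0.863 and 1.39 (0.66, adjusted p = 0.023). Il4ra rose by 0.38 and Ccnd2, a cyclin, fell by 0.19 on the log2 scale. The call on Socs3 was lost without CpG1668+Dox 1, CpG1668+Dox 2, Dox 2 or Dox 3 (adjusted p = 0.052 to 0.08). Ccnd2 was no longer called without CpG1668+Dox 1, CpG1668+Dox 2, Dox 2 or Dox 3 (adjusted p = 0.058 to 0.11).

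The lower side of the comparison held smaller changes in well expressed genes: the median Dox level was 14.6 RPKM for the 86 genes called lower, 2.56 for the 398 called higher and 7.38 for all genes. Serpinb1a, an inhibitor of neutrophil serine proteases, was at 56.7, 54.2 and 55.1 RPKM with CpG1668+Dox and 72, 93.4 and 109.8 with Dox (-0.70 ± 0.12, limma adjusted p = 0.0048). It fell while the proteases Elane, Ctsg and Prtn3 rose, and its groups did not overlap. Myadm (-0.47), Crip1 (-0.44), Otub2 (-0.36), Slc14a1 (-0.35), Capn2 (-0.34) and Tex19.1 (-0.38) fell. Fitted on the 6 libraries alone, Serpinb1a, Myadm and Crip1 were no longer called. Otub2, a deubiquitinase, was at 10.7, 11.3 and 11.6 against 14.6, 14.3 and 15 RPKM, with no overlap. Gfra2 (-0.45) and Tuba1a (-0.43) also fell. For Gfra2 the threshold was missed without CpG1668+Dox 1, CpG1668+Dox 3, Dox 1 or Dox 3 (adjusted p = 0.066 to 0.13). The call on Tuba1a was lost without CpG1668+Dox 3, Dox 2 or Dox 3 (adjusted p = 0.085 to 0.096).

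Of the 3 genes called lower with at least a 2-fold difference in means, H2-Ab1 is described above. The other two were picked after their values were seen: Mcpt1, a mast cell protease (0.497, 0.96 and 0.828 against 3.55, 2.1 and 2.59 RPKM; -1.08, limma adjusted p = 0.0012), and the predicted gene Gm47295. Gm47295 was at 2.73 to 4.80 RPKM in Dox and at 0.29 or less in CpG1668+Dox (-2.17, adjusted p = 0.015). Without doxycycline it was high in 2 of 3 CpG1668 libraries (3.33 and 2.72) and at 0.20 or less in every PBS library.

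Some progenitor genes fell by small amounts. Of 15 kept stem, progenitor and leukaemia genes, 3 fell (20%, against 0.703% of all genes) and 1 rose, and the summed level of the list was 489 to 492 RPKM with CpG1668+Dox against 526 to 531 with Dox. Gata2 was at 21.4, 21.1 and 20.6 against 23.1, 25.5 and 26.2 RPKM (-0.23, limma adjusted p = 0.017), Tal1 changed by -0.15 and Hlf by -0.27. Gata2 was no longer called without CpG1668+Dox 3, Dox 2 or Dox 3 (adjusted p = 0.062 to 0.073). Tal1 was no longer called when any 1 of the 6 libraries was left out (adjusted p = 0.061 to 0.16). The call on Hlf was lost without CpG1668+Dox 1, CpG1668+Dox 2, CpG1668+Dox 3 or Dox 1 (adjusted p = 0.0502 to 0.11). Cd93 was the 1 that rose (0.67, adjusted p = 0.0018). Cbfb stayed level (0.00, adjusted p = 0.99), and Kit changed by -0.02 (adjusted p = 0.97).

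Erythroid and megakaryocyte genes were all on the lower side, 24 of 24 and 9 of 9 kept, with medians of -0.14 and -0.17, and 1 and 2 of them were called lower (4.17% and 22.2%, against 0.703% of all genes). Car2, carbonic anhydrase 2, was at 287, 293 and 286 RPKM against 398, 328 and 365 (-0.33, limma adjusted p = 0.0085). The call on Car2 was lost when the 6 libraries were fitted alone. Gata1 changed by -0.14 (adjusted p = 0.15), which was not called. Gp5 (-0.19) and Plek (-0.24) were called lower. Gp5 was no longer called without CpG1668+Dox 1, CpG1668+Dox 3, Dox 1 or Dox 3 (adjusted p = 0.066 to 0.098). Plek was no longer called when any 1 of the 6 libraries was left out (adjusted p = 0.081 to 0.16). The summed erythroid level overlapped, at 4113 to 6765 RPKM with CpG1668+Dox and 4149 to 8444 with Dox, and it was highest in Dox 1.

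**Figure D4:**
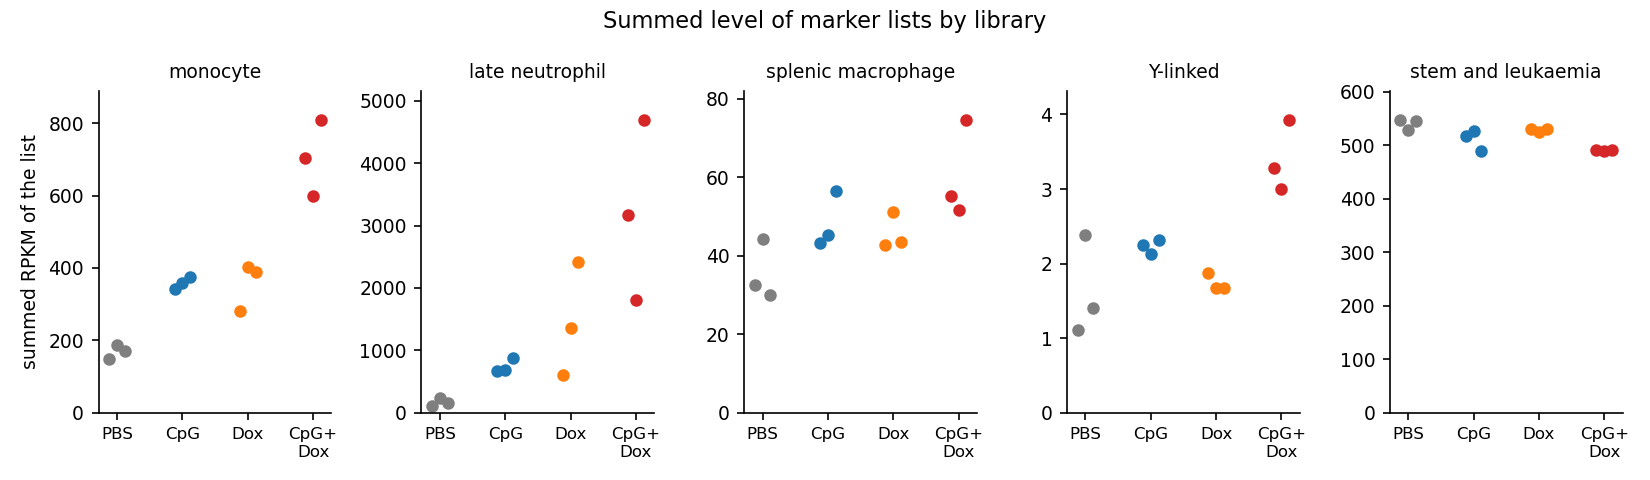
Summed RPKM of 5 marker lists in each library of the 4 groups (CpG for CpG1668, CpG+Dox for CpG1668+Dox), 1 point per library. The monocyte and Y-linked sums are higher in every CpG1668+Dox library than in every Dox library, the late neutrophil sums overlap, and the stem and leukaemia sums are lower.

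Markers of host cells were counted beside these results. Adgre1 (5.38, 4.96 and 5.67 RPKM against 1.42, 2.13 and 1.45; 1.26, limma adjusted p = 0.00049) and Cd68 rose, 2 of 11 kept splenic macrophage genes, and the summed list was 51.6 to 74.7 RPKM with CpG1668+Dox against 42.7 to 51.1 with Dox. Of the 11 kept, 8 had a positive change and none was called lower, with a median of 0.25 and a lowest change of -0.35. Without overlap, 4 of them were higher and 2 lower. Axl and Apoe were not called, and leaving out 1 library gave 0 to 2 called lower. The other 7 macrophage genes were under the filter and split: 2 were higher in every CpG1668+Dox library than in every Dox library, 3 were lower and 2 overlapped. Among kept genes 9.3% were higher and 10.2% lower without overlap, and no share was counted for genes under the filter. Spic, a transcription factor of red pulp macrophages, was at 1.04 to 1.73 against 0.480 to 0.718 RPKM, and Mertk, a receptor for dying cells, at 0.469 to 0.842 against 0.263 to 0.394. Timd4, at 0 to 0.0743 against 0.173 to 0.196, Cd163, at 0.0594 to 0.172 against 0.269 to 0.433, and Siglec1, at most 0.122 against 0.149 to 0.165, were the 3 that were lower. Of the 12 dendritic cell genes under the filter, 1 was higher and 3 lower without overlap. Cd209a, a dendritic cell gene, was listed at 0 in all 3 CpG1668+Dox libraries and at 0.320 to 0.498 in Dox.

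Most lymphoid and stromal genes were under the filter. Of the 16 T and NK cell genes there, 3 were higher without overlap and 2 lower, and the summed list was 13.6 to 23.6 RPKM against 15.0 to 18.5. As above, these counts have no share over all genes under the filter beside them. Cd3d was at 0.341 to 0.552 against 0.207 to 0.314 RPKM and Lck at 0.419 to 0.453 against 0.346 to 0.555, while Cd3e was at most 0.0158. Lower without overlap were Cd4, at 0.0220 to 0.0641 against 0.0895 to 0.102, and Cd3g, at 0.00988 to 0.0272 against 0.0291 to 0.0383. Of the 13 B and plasma cell genes under the filter, 1 was higher without overlap and none lower: Cd79b, a subunit of the B cell receptor, was at 0.766 to 0.858 against 0.161 to 0.266 RPKM, while Ms4a1 was at most 0.00954. The summed B and plasma cell list was 6.88 to 10.4 RPKM against 2.49 to 2.86. Stromal and endothelial genes summed to 9.16 to 10.3 against 8.63 to 9.55 RPKM, with Col1a1 at most 0.0449. Ighm, the immunoglobulin mu constant region, was the 1 kept gene of 14 B and plasma cell genes and rose (5.62, 5.66 and 8.63 against 1.94, 2.37 and 1.66 RPKM; 1.34), with Vpreb3 listed at 0 in all 6. Mcpt8, a basophil protease, rose (0.82), as did the endothelial and leucocyte adhesion molecule Pecam1 (0.83), 1 of 11 kept mast cell and basophil genes and 1 of 3 kept stromal and endothelial genes. Gata2, also in the mast cell and basophil list, was its 1 member called lower. That is 9.09% each way, against 3.25% higher and 0.703% lower of all genes. The list's median was -0.02, with 5 of 11 positive, and Prss34 and Hdc were not called. The call on Mcpt8 was lost without CpG1668+Dox 2, CpG1668+Dox 3, Dox 1 or Dox 2 (adjusted p = 0.064 to 0.078). Alas1, the first enzyme of haem synthesis, was the 1 of 9 kept haem genes called higher (0.45). Alas1 was no longer called without CpG1668+Dox 1, CpG1668+Dox 3, Dox 1, Dox 2 or Dox 3 (adjusted p = 0.064 to 0.11). Of the 2 kept dendritic cell genes and the 1 kept T and NK cell gene, limma called none (0 and 0 at an unadjusted p under 0.05).

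Y-linked transcripts also moved with the groups. Eif2s3y was at 1.7, 1.6 and 1.99 RPKM with CpG1668+Dox and 0.977, 0.844 and 0.944 with Dox (0.52 ± 0.11, limma adjusted p = 0.02). Ddx3y (1.08 to 1.44 against 0.561 to 0.710), Kdm5d (0.152 to 0.241 against 0.0866 to 0.0990) and Uty (0.182 to 0.258 against 0.0747 to 0.107), under the filter, were separate in the same direction. The sum of the 4 genes was 3.01 to 3.93 RPKM against 1.67 to 1.88. Xist overlapped (43.8, 48.3 and 52.4 against 39.3, 47.4 and 54.2 RPKM). For Eif2s3y the threshold was missed without CpG1668+Dox 1, CpG1668+Dox 3, Dox 1, Dox 2 or Dox 3 (adjusted p = 0.053 to 0.082). The part of host cells, and of Y-linked RNA, in the monocyte and granule changes was not tested. With the log2 value of Eif2s3y as a covariate, a fit added after its values were seen, 4 genes were called higher, F13a1, Ccl9 and Klf4 among them, and 1 lower. Since Eif2s3y did not overlap between the groups, that fit and the treatment cannot be told apart.

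Basic cell programmes showed no called gene. limma called none of 20 DNA replication, 20 mitosis, 20 cytosolic ribosomal protein, 13 mitochondrially encoded, 19 sterol and fatty acid synthesis or 19 chromatin-modifying genes, with medians from -0.11 (mitochondrially encoded) to 0.05 (mitosis). At an unadjusted p under 0.05, 0, 1, 0, 1, 4 and 2 of them passed in that order. Integrated stress response genes were likewise not called (15 kept, 2 at an unadjusted p under 0.05, median -0.11). Immediate-early and dissociation stress genes had a median of -0.02, and Socs3 was the 1 called, while Casp1, the inflammatory caspase, was the 1 of 18 kept p53 and apoptosis genes called (0.89). Of 21 hypoxia and glycolysis genes 4 rose (19%, against 3.25% of all genes) and 1 fell (4.76%, against 0.703%). They were led by P4ha1 (0.36) and Ndrg1 (0.35) upward and Pfkp (-0.20) downward. Of 16 S100 and annexin genes 3 rose (18.8%): S100a4 (0.92), S100a6 (0.61) and Anxa3 (1.05). The calls on Ndrg1 and Anxa3 were lost when the 6 libraries were fitted alone. The call on P4ha1 was lost without CpG1668+Dox 1, CpG1668+Dox 3, Dox 1 or Dox 3 (adjusted p = 0.078 to 0.089). S100a6 was no longer called without CpG1668+Dox 1, CpG1668+Dox 2, CpG1668+Dox 3, Dox 1 or Dox 2 (adjusted p = 0.057 to 0.14).

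The same contrast without doxycycline, CpG1668 against PBS, called 423 genes higher (3.46%) and 367 lower (3%), 6.45% in all. Of the 398 genes called higher with doxycycline, 390 (98%) had a positive change without it, where 44% of all genes did, and 277 (69.6%) were called higher there too. Those 277 are 65.5% of the higher calls without doxycycline. Of the 86 genes called lower, 81 had a negative change without doxycycline and 49 (57%) were called lower, which is 13.4% of the 367. No gene was called in opposite directions. The median change of the 398 was 0.61 with doxycycline and 0.52 without, and that of the 86 was -0.25 and -0.18.

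**Figure D5:**
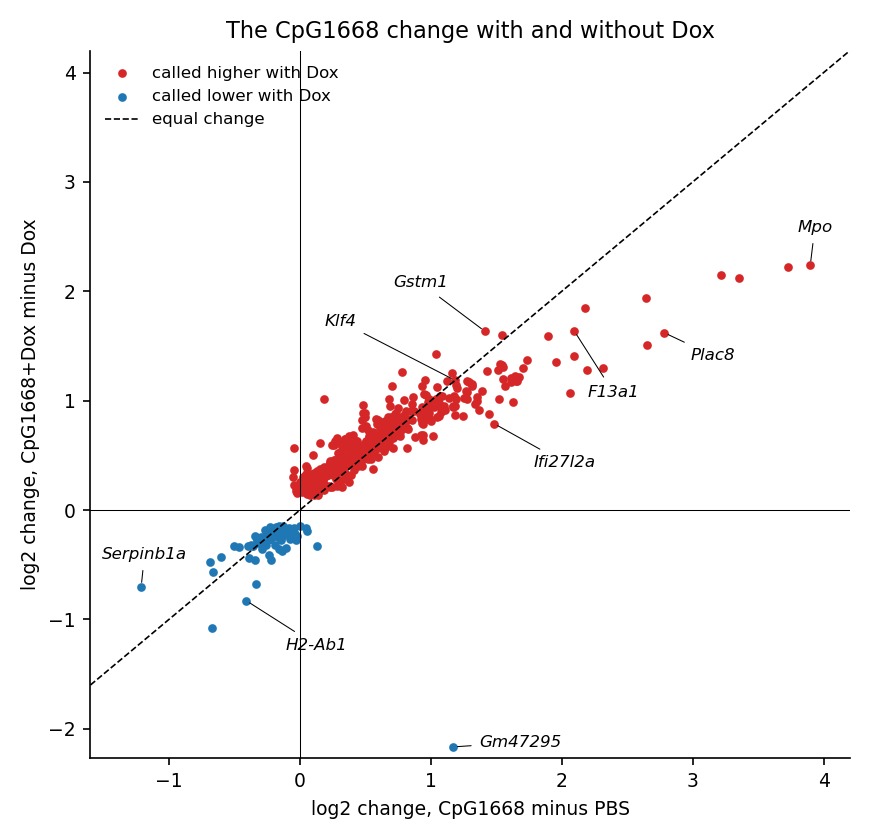
Log2 change with doxycycline (CpG1668+Dox minus Dox, vertical) against the change without it (CpG1668 minus PBS, horizontal) for the 398 genes called higher and the 86 called lower with doxycycline; the dashed line marks equal change. Most points lie in the quadrants of equal sign, Mpo and Plac8 lie below the line, and Gm47295 is alone at the bottom right.

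The difference between the 2 changes was tested as an interaction, and limma called none of the 12239 genes (smallest adjusted p = 0.309), with 806 (6.59%) at an unadjusted p under 0.05. The 3 genes with the smallest p were Gm5586 (-0.45), Ddit4 (-0.66) and Ypel3 (0.76). Ddit4, a stress-induced inhibitor of mTOR signalling, changed by 0.00 with doxycycline (21.6, 25.8 and 26.9 against 24.8, 25.1 and 23.9 RPKM) and by 0.66 without. For Mpo the changes were 2.24 and 3.9, a difference of -1.66 ± 0.35 (unadjusted p = 0.0006), and for Plac8 1.62 and 2.78, a difference of -1.16 ± 0.24. The mean level of Mpo in the libraries without CpG1668 was 17.4 ± 6.16 RPKM with doxycycline and 2.26 ± 0.141 in PBS. Klf4 and Irf8 differed by 0.00 ± 0.10 and -0.09 ± 0.13.

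In all, 158 genes were called with doxycycline and not without it, which is no test of a difference. Those with the smallest p were Rasa3, a Ras GTPase-activating protein (10.6, 10.2 and 10.7 against 8.69, 8.9 and 8.59 RPKM; 0.24 with doxycycline and 0.08 without), Gngt2 (0.60 and 0.26), Sh3bp5 (0.26 and 0.11), Cytip (0.33 and 0.11), Slfn9 (0.24 and 0.04) and Gsr (0.38 and 0.18). Rasa3 did not overlap between the groups with doxycycline. The difference between its 2 changes had an unadjusted p of 0.0051 and was not called after adjustment.

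Promoters were read because 398 genes moved in one direction. No test was made on them. The 250 bases before each RefSeq transcription start (GRCm38.p6) were searched on both strands for 7 short motifs, in 356 promoters of 293 of the genes called higher, 86 promoters of 63 genes called lower and 10280 promoters of 8124 kept genes, the symbols that could be matched. The motif of interferon regulatory factors, GAAA and GAAA with any 2 bases between, was in 10.1% of promoters of genes called higher, 2.33% of those called lower, 2.72% of all kept genes and 2.98% of the 32851 promoters of the table. GAGGAAGT, a PU.1 motif, was in 7.58%, 1.16%, 2.63% and 2.44% of them in the same order. TTGCNNAA, a C/EBP motif, was in 12.6%, 5.81%, 7.53% and 9.56%.

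The STAT motif TTCCNGGAA was in 0.843% of promoters of genes called higher and 0.982% of those of kept genes, and the E-box CACGTG in 5.34% and 8.51%. AGATAA, read by GATA factors, was in 7.87% and 5.95%, and the NF-kappaB motif, GGGA, any base, then TTTCC, in 1.12% and 0.389%, that is 4 and 40 promoters. The interferon regulatory factor and PU.1 motifs share letters, but they stood together in 3 promoters of genes called higher and overlapped in 0 of them. At least 1 of that pair was in 16.9% of promoters of genes called higher and 5.24% of those of kept genes. A match is a run of letters and does not show a bound factor.

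Of the promoters of named genes called higher, Pilra is shown because it holds the most kinds of motif (3), and Fcgr4 and Cybb because they have the largest changes among those with 2 kinds. They are read 5′ to 3′ on the strand of the gene, from RefSeq with GRCm38.p6 coordinates, and end at the base before the start site; capitals mark motif matches on either strand.
Pilra promoter, chr5:137836279-137836528, minus strand: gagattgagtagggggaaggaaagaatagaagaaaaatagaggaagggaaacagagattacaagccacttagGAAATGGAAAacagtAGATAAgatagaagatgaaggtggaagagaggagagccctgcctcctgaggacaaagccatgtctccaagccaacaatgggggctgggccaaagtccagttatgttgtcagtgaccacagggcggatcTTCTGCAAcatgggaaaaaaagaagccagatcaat
Fcgr4 promoter, chr1:171018676-171018925, plus strand: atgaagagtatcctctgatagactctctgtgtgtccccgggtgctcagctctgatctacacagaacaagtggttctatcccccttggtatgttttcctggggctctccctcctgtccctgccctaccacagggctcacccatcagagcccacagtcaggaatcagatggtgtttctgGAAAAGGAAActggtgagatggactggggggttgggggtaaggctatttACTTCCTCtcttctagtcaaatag
Cybb promoter, chrX:9469325-9469574, minus strand: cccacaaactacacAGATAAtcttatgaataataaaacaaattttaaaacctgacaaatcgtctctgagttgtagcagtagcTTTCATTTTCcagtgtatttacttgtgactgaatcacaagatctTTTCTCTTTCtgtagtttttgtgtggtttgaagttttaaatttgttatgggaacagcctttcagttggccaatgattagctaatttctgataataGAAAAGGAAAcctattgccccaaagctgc
In the Pilra promoter GAAATGGAAA starts at position -178 from the start site, AGATAA at -163, and TTCTGCAA, the reverse complement of the C/EBP form, at -35. In the Fcgr4 promoter GAAAAGGAAA starts at -73 and ACTTCCTC, the PU.1 motif read on the other strand, at -24. The Cybb start used here lies within the gene's GENCODE span on the X chromosome (9435252 to 9487771). Its promoter holds 3 matches to the interferon regulatory factor motif, starting at -168, -124 and -29, and AGATAA at -236. The 3 genes changed by 0.87, 1.6 and 1.23 with doxycycline and by 0.80, 1.55 and 1.64 without it.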

How the data were processed

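RNA from sorted leukaemia cells of 12 libraries (4 treatments, 3 libraries each) was sequenced, and treatments and replicate numbers were taken from the sample titles. The deposited values are RPKM per gene symbol, 1 table per library, scaled by the authors. Per the submitters' processing notes the tools named were STAR 2.7.9 and Partek 7.18.0723 and the build mm10; the annotation and strand setting are not stated in the labels or file headers. RPKM removes depth and gene length, so no count model could be the main test. Reads of close paralogues (class I H2-Q genes, Csf2rb and Csf2rb2, the Gstm, Ifitm and Mcpt families) could have been split between members, and with no strand stated, overlapping genes cannot be told apart.

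From these values, log2(RPKM + 1) was fitted with limma 3.58.1 (R 4.3.3) as 4 group means over all 12 libraries with an intensity trend. Genes needed a mean of at least 1 RPKM over the 6 libraries compared, and a gene was called at a Benjamini-Hochberg adjusted p under 0.05 over 12239 genes; every adjusted p in the text comes from that model or from its refit without a library. A fold on this scale understates the change of low genes. Some genes, Tlr8, Gbp3, Fcgr1 and Eif2s3y among them, had a Dox mean under 1 RPKM and passed the filter through CpG1668+Dox alone. Mcpt1 and Gm47295 passed it through Dox alone. The list counts include such genes. With the mean taken over all 12 libraries, 342 genes were called higher and 81 lower. Tlr8, Cd180, Clec12a, Pecam1 and Casp1 fell under 1 RPKM by that mean and were not tested there. The depth in reads was estimated from the RPKM step and GENCODE M21 gene lengths, with 72.2% to 73.5% of low values within 0.05 reads of a whole number, so it is approximate and no reads were recovered. The fit was tested on simulated data for CpG1668+Dox against Dox over 12239 genes. It recovered 52% of genes given a 1.25-fold change, 84% of those given 1.5-fold, 96% of those given 2-fold and all those given 4-fold. Of its calls 2.35% were false. The simulated noise was normal, independent between genes and libraries, and of equal spread for a gene in all 4 groups. These shares therefore need not hold for the real libraries.

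The members and the 43 gene lists (558 of 710 genes kept) were chosen with earlier results of these data known. Named genes were the 12 largest changes each way with no overlap and at least 5 RPKM in the higher group, up to 4 per list by the moderated statistic, a fixed set with Stat3 and Irf8, the genes with the smallest interaction p, and the 6 genes with the smallest p called with doxycycline only; counts of 5 or fewer could be named in full. Other genes named (Ccr2, Csf1r, Lyz2, Tlr2, Tlr7, Cebpe, Klf2, Csf2rb, S100a8, Kit, Cd34, Cd74, H2-Eb1, Il10, Il12b, Mcpt1, Gm47295, Xist and the members under the filter other than Tlr9) were picked after their values were seen. Coordinates are GENCODE M21 (GRCm38) and promoter sequences RefSeq, GRCm38.p6. Alternatives tried were another pseudocount, other filters, scalings and fits, fits with the replicate number as a block, and fits without each library in turn. Some members of the lists are counted but not reported here by name.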

Additional observations from a re-analysis of the deposited data

How the results depend on the processing

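Under the other filters, scalings, fits and left-out libraries listed in the methods, 59 of the 100 named genes called stayed called, 41 lost the call under at least 1, and none changed direction; a change of sign in a value never called was not counted. For CpG1668+Dox against Dox, a mean of at least 5 RPKM gave 152 genes higher and 54 lower, with fewer genes tested. Quantile normalization gave 138 lower, and fitting the 6 libraries alone gave 208 and 33. Leaving out 1 library gave 262 to 430 higher and 42 to 75 lower. Of the fits added after the data were seen, the late neutrophil covariate gave 172 and 25, the Eif2s3y covariate 4 and 1, and leaving out CpG1668+Dox 3 and Dox 1 together 210 higher. For CpG1668 against PBS, no filter gave 204 lower and a mean of at least 5 RPKM 202 higher. Its own 6 libraries alone gave 423 higher, the count of the main fit, and 219 lower. With 1 of these libraries left out it gave 269 to 299 higher and 129 to 233 lower. The interaction gave 3 higher and 9 lower with no filter, and 0 to 1 lower when 1 library was left out (1 without CpG1668+Dox 1 and 1 without CpG1668 1). With a pseudocount of 0.1, which stretches low genes, the list medians were 1.1 for other Toll-like receptors, 0.66 for myeloid transcription factors, 1.19 for monocyte genes and 0.85 for Fc receptors and lectins. The cause of these differences was not tested.

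Same-numbered CpG1668+Dox and Dox libraries correlated in their deviations from the group means at 0.069, -0.19 and 0.28. These few values cannot decide whether the numbers pair the libraries. With the replicate number as a block, 353 genes were called higher and 63 lower, and CpG1668 against PBS gave 243 lower; 2 of 3 CpG1668+Dox libraries correlated best with their own number. At the estimated depth, genes under about 0.1 RPKM rest on few reads.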
